A study of Mus musculus with 2 samples.

Results

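The genes described here are the 10 non-collagen genes of the cartilage matrix Acan, Hapln1, Matn1, Matn2, Matn3, Matn4, Comp, Lect1, Chad and Prg4. They were chosen by name as a functional group, with earlier results of these data known. All 10 had a row among the 23930 targets of the deposited table. Each target is 1 amplicon of the Ion AmpliSeq mouse panel, a primer set in which every gene is read through a single short amplified stretch. The tissue came from the coronal, sagittal and lambdoid sutures of the skull, taken at postnatal day 3 from mouse pups of wildtype genotype, and the 2 libraries form 1 group with the same batch number. They are called library 1 and library 2 after the number in their titles. The labels name suture stem cells as the cell type, but RNA was extracted from the tissue with no sorting step described, so the values are those of bulk tissue. In such tissue, fewer cells of a type and less RNA per cell cannot be told apart. Whether different pups went into the libraries is not stated, and part of the spread between them may be technical.

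Cartilage resists compression because aggrecan, a very large proteoglycan laden with chondroitin sulfate, is held on hyaluronan by link protein and draws water into a collagen network. Matrilins, COMP and chondroadherin are adaptor proteins that tie collagen fibrils, proteoglycans and cells together. Most calvarial bone forms directly from mesenchyme without a cartilage template, while the skull base and the nasal capsule form through cartilage. Cartilage is also known to form in some sutures.

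Sequence upstream of the start site is shown for 4 of the genes, since 2 of them differed between the libraries by nearly the same fold (Acan and Lect1), 1 differed less (Matn1) and 1 was nearly level (Chad). The RefSeq promoter table, on build GRCm38.p6, held 7 of the 10 genes, and each run gives the 250 bases before the start site, 5′ to 3′ on the gene's strand. Capitals mark a match to a searched motif on either strand. The start sites are those of RefSeq. They equal the GENCODE starts for Matn1 and Chad, while the GENCODE gene begins 257 bases downstream for Acan and 13 bases downstream for Lect1.
Acan, chr7:79052976-79053225, plus strand: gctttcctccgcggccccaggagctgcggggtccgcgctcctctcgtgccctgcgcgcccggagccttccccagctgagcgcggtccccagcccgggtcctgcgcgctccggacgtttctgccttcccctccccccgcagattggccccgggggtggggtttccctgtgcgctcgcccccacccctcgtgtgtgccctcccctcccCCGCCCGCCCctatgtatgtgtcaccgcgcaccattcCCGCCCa
Lect1, chr14:79662184-79662433, minus strand: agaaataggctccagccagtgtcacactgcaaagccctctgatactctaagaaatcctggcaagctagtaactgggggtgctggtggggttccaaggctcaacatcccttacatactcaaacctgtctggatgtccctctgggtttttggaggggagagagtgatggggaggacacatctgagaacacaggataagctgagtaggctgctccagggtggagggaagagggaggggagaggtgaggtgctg
Matn1, chr4:130944135-130944384, plus strand: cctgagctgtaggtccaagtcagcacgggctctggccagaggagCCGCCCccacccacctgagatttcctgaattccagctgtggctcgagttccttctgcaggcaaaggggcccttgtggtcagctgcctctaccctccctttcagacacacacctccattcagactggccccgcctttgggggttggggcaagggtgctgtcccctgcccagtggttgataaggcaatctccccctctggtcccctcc
Chad, chr11:94564797-94565046, plus strand: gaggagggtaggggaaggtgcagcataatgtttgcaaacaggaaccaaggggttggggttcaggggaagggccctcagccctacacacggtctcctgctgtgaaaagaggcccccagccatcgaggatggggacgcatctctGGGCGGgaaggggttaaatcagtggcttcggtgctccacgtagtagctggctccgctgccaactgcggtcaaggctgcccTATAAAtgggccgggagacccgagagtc

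The motifs searched on both strands were the SOX cores ACAAT and ACAAAG, the TATA box TATAAA and the GC box GGGCGG, with overlapping matches counted separately. Acan held 3 matches to the GC box, of which the pair beginning 44 and 40 bases before the start site overlapped. The GC box also occurred once in the Matn1 window and once in the Chad window, and the Lect1 window held none of the searched letters. Chad held TATAAA, beginning 28 bases before its start site. Among the 7 genes with a window, 5 held the GC box, 1 held TATAAA, 1 (Hapln1) held ACAAT and 0 held ACAAAG, with Matn4 counted over both of its start sites. Over all 32851 windows of that length in the table, the shares were 32.7% for GGGCGG, 12.4% for TATAAA, 27.7% for ACAAT and 16.5% for ACAAAG. These shares are per window and the counts above are per gene, so the measures are not quite alike. Lect1, with none of these motifs in its window, could share none with Acan or with any other gene. Matn4, which differed 2.59-fold between the libraries, held the GC box as Acan did, in the window of 1 start site. Matn3, at 1.43-fold, held 3 matches to it, and Hapln1, at 2.56-fold, held none. The GC content of the Acan and Lect1 windows was 74.4% and 54.0%. These matches are descriptions of letters and not of bound sites.

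Levels are given in CPM, counts scaled to the library total. Library 1 held 5663344 reads and library 2 held 15802610, so library 2 was 2.79 times deeper. The 10 genes took 4802 reads (848 CPM) in library 1 and 28199 reads (1784 CPM) in library 2, a ratio of 2.10. Of the 10, 9 reached 1 CPM in both libraries and the same count reached 10 CPM in both. Prg4 was the exception, above 1 CPM in library 1 and below it in library 2. Amplicons differ in efficiency. The order of the genes is therefore an order of reads, and the difference of 1 gene between libraries is the firmer measure. All intervals below are exact 95% intervals of the reads. They cover counting error only, since the amplified reads were not tagged by molecule.

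**Figure D1:**
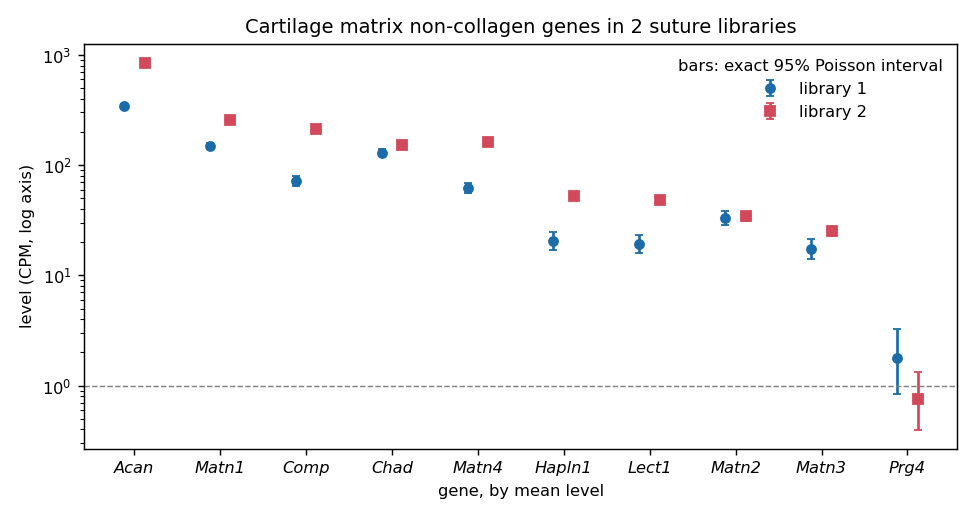
Level in CPM (log axis) of the 10 genes in library 1 (circles) and library 2 (squares), ordered by mean, with exact 95% Poisson intervals as bars and the level of 1 CPM dashed. Acan was highest in both libraries at 344 and 840 CPM, Matn2 was nearly level at 33.0 and 34.2 CPM, and Prg4 was at 1.77 and 0.759 CPM.

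Acan, the gene of aggrecan, gave the most reads of the 10 in both libraries. It stood at 344 CPM in library 1 (interval 329 to 360) and 840 CPM in library 2 (interval 826 to 854), with a mean of 592 CPM ± 350 (SD, n = 2). In library 1, 98.7% of all targets were lower, and in library 2 99.6% were. The level in library 2 was 2.44-fold that in library 1 (interval 2.32 to 2.56). Acan lies on mm10 chromosome 7 from 79053483 to 79115099 on the plus strand. It made up 40.6% of the reads of the 10 genes in library 1 (interval 39.2 to 42.0, Clopper-Pearson) and 47.1% in library 2 (interval 46.5 to 47.7).

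Hapln1, the gene of the link protein that locks aggrecan onto hyaluronan, differed between the libraries by about as much as Acan. It was at 20.7 CPM in library 1 (interval 17.1 to 24.8) and 53.0 CPM in library 2 (interval 49.4 to 56.7), with a mean of 36.8 CPM ± 22.8 (SD, n = 2). Its fold was 2.56 (interval 2.11 to 3.14). Acan gave 16.7 reads for each Hapln1 read in library 1 and 15.9 in library 2. That ratio changed by a factor of 0.951 (interval 0.772 to 1.16), so no change of the pair relative to each other was detectable. Hapln1 lies on chromosome 13 from 89539796 to 89611652.

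The 4 matrilins, adaptor proteins that form oligomers around cartilage collagen and aggrecan, differed in their folds, and none was called higher in library 1. Matn1, the matrilin best known from hyaline cartilage, was the highest of them in both libraries, at 148 CPM in library 1 (interval 139 to 159) and 256 CPM in library 2 (interval 248 to 264), a fold of 1.73 (interval 1.60 to 1.86). Matn4, a matrilin also known from tissues other than cartilage, was at 62.2 CPM (interval 55.8 to 69.0) and 161 CPM (interval 155 to 167), a fold of 2.59 (interval 2.31 to 2.90). The intervals of these folds did not overlap, and the fold of Matn4 was 1.5 times that of Matn1 (interval 1.31 to 1.72). Matn3, a matrilin of growth cartilage that can assemble with matrilin-1, was at 17.5 CPM (interval 14.2 to 21.3) and 25.1 CPM (interval 22.7 to 27.7). Its fold of 1.43 (interval 1.15 to 1.81) was not resolved from that of Matn1, with Matn1 giving 8.49 reads for each Matn3 read in library 1 and 10.2 in library 2. Matn2, a broadly expressed matrilin of fibrous and epithelial tissues, stood level at 33.0 CPM (interval 28.5 to 38.1) and 34.2 CPM (interval 31.4 to 37.2). Its fold of 1.04 (interval 0.876 to 1.23) bounds any difference, as far as counting error goes, to less than 1.23-fold upward. Over both libraries the means were 202 CPM ± 76.2 for Matn1, 111 CPM ± 69.7 for Matn4, 33.6 CPM ± 0.860 for Matn2 and 21.3 CPM ± 5.36 for Matn3 (SD, n = 2). Matn2 outranked Hapln1 and Lect1 in library 1 and lay below both in library 2. The genes lie on chromosome 4 from 130944385 to 130955475 (Matn1), chromosome 15 from 34306677 to 34436273 (Matn2), chromosome 12 from 8947929 to 8972028 (Matn3) and chromosome 2 from 164389393 to 164405160 (Matn4).

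Comp, the gene of cartilage oligomeric matrix protein, a pentamer of the thrombospondin family found in cartilage, tendon and ligament, differed most of the 10. It stood at 71.7 CPM (interval 64.9 to 79.0) in library 1 and at 213 CPM (interval 206 to 221) in library 2, with a mean of 143 CPM ± 100.2 (SD, n = 2). The fold was 2.98 (interval 2.68 to 3.31). Comp lies on chromosome 8 from 70373558 to 70382066. Chad, the gene of chondroadherin, a leucine-rich repeat protein that binds collagen and integrins, was the third in library 1 and the fifth in library 2. Its level was 129 CPM (interval 120 to 139) and 153 CPM (interval 147 to 159), with a mean of 141 CPM ± 16.8 (SD, n = 2), and the fold was 1.18 (interval 1.09 to 1.29). Chad thus gave more reads than Comp in library 1, at 730 against 406, and fewer in library 2, at 2412 against 3372. Chad lies on chromosome 11 from 94565047 to 94569127.

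Lect1, now named Cnmd, codes for chondromodulin, a membrane-bound precursor of a cartilage protein that inhibits vessel growth. It was at 19.2 CPM in library 1 (interval 15.8 to 23.2) and 48.5 CPM in library 2 (interval 45.1 to 52.0), with a mean of 33.9 CPM ± 20.7 (SD, n = 2). The fold was 2.52 (interval 2.06 to 3.11), and the gene lies on chromosome 14 from 79637690 to 79662170. Prg4, the gene of lubricin, which coats joint surfaces and tendon sheaths, was near the limit of detection. It gave 10 reads in library 1 (1.77 CPM, interval 0.847 to 3.25) and 12 in library 2 (0.759 CPM, interval 0.392 to 1.33). A count of 0 would allow up to 3 reads, or 0.530 CPM at the depth of library 1 and 0.190 CPM at that of library 2. The 2.33-fold higher level in library 1 had an interval from 0.900 to 5.87, so a difference was not detectable at this depth. Prg4 lies on chromosome 1 from 150449412 to 150466165. Of all targets, 46.5% were lower than Prg4 in library 1 and 38.7% in library 2.

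The order of reads was Acan, Matn1, Chad, Comp, Matn4, Matn2, Hapln1, Lect1, Matn3 and Prg4 in library 1. In library 2 it was Acan, Matn1, Comp, Matn4, Chad, Hapln1, Lect1, Matn2, Matn3 and Prg4. The pairs Comp and Matn4, Hapln1 and Lect1, and Lect1 and Matn3 were not resolved in library 1, their read ratios being 1.15 (interval 0.998 to 1.33), 1.07 (interval 0.820 to 1.41) and 1.10 (interval 0.831 to 1.46). In library 2 the unresolved neighbours were Matn4 and Chad at 1.05 (interval 0.996 to 1.11) and Hapln1 and Lect1 at 1.09 (interval 0.989 to 1.21). Acan, Matn1, Matn3 and Prg4 held the same places in both libraries.

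**Figure D2:**
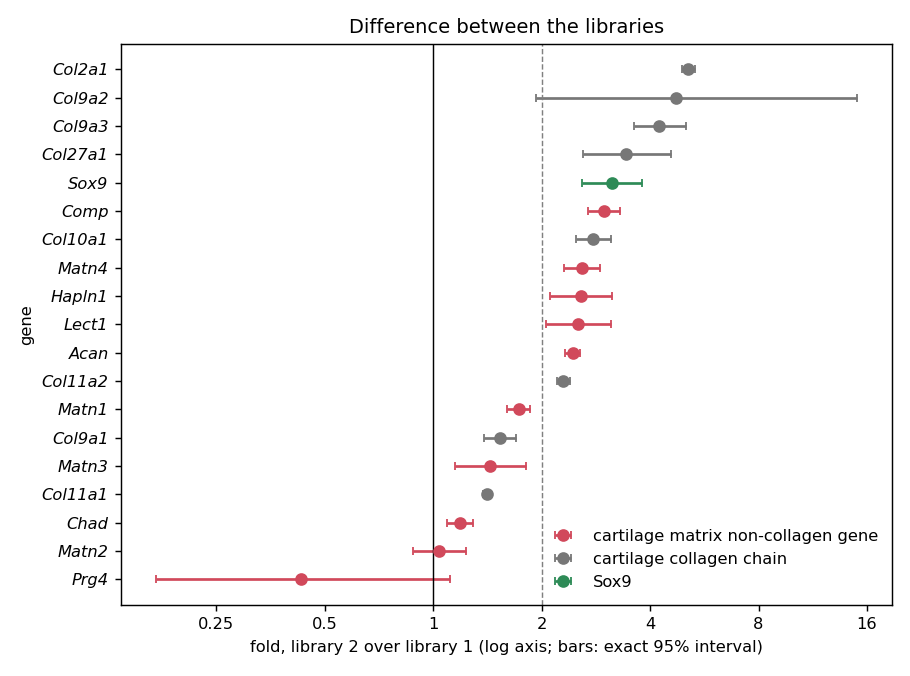
Fold of library 2 over library 1 (log axis) with exact 95% intervals for the 10 genes (red), 8 cartilage collagen chains (grey) and Sox9 (green), with lines at 1 and 2. Comp, Matn4, Hapln1, Lect1 and Acan lie between 2.44 and 2.98, below Col2a1 at 5.10, and the intervals of Matn2 and Prg4 cross 1.

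For each target, the reads of the libraries were set against each other in an exact binomial test (two-sided), adjusted by Benjamini and Hochberg over all 23930 targets, at a threshold of 0.05. In that test 8 of the 10 genes were higher in library 2 and 0 in library 1, and Matn2 and Prg4 were not called (adjusted p = 1 and 0.126). Over all targets the same test called 20.0% higher in library 2 and 17.1% higher in library 1. Among the 9192 targets at a mean of 10 CPM or more it called 69.5%. Those higher in library 2 were 37.0% of these targets and those higher in library 1 32.5%. A difference beyond counting error was thus common for well-measured genes. The counts called in the other gene lists below are to be read beside these shares. By a fold of 2 or more, 5 of the 10 genes were higher in library 2 (Acan, Hapln1, Matn4, Comp and Lect1), beside 8.66% of the targets at a mean of 10 CPM or more. In an exact test against a difference of 1.5-fold, 6 were higher in library 2, the same 5 and Matn1, beside 9.57% of those targets. The smallest difference called was that of Chad (adjusted p = 0.000223), followed by Matn3 (adjusted p = 0.00379), both by the exact binomial test. These tests compare 2 libraries of 1 group and say nothing about a condition.

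On the log2(CPM + 1) scale, which understates the change of genes near 1 CPM, the median difference of the 10 genes, library 2 minus library 1, was 1.03. The median over the 14097 targets at a mean of 1 CPM or more was 0.07. The difference was 1.56 for Comp, and 2.32% of the targets at a mean of 10 CPM or more had a higher one. For Matn4 it was 1.36 (3.32% higher), for Hapln1 1.32 (3.76%), for Lect1 1.29 (3.99%) and for Acan 1.28 (4.06%). Matn1 at 0.78 was exceeded by 13.6% of those targets, Matn3 at 0.50 by 25%, Chad at 0.24 by 38.7% and Matn2 at 0.05 by 50.0%. Matn2 and Chad therefore sat in the middle of the distribution and 5 genes sat in its upper tail.

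**Figure D3:**
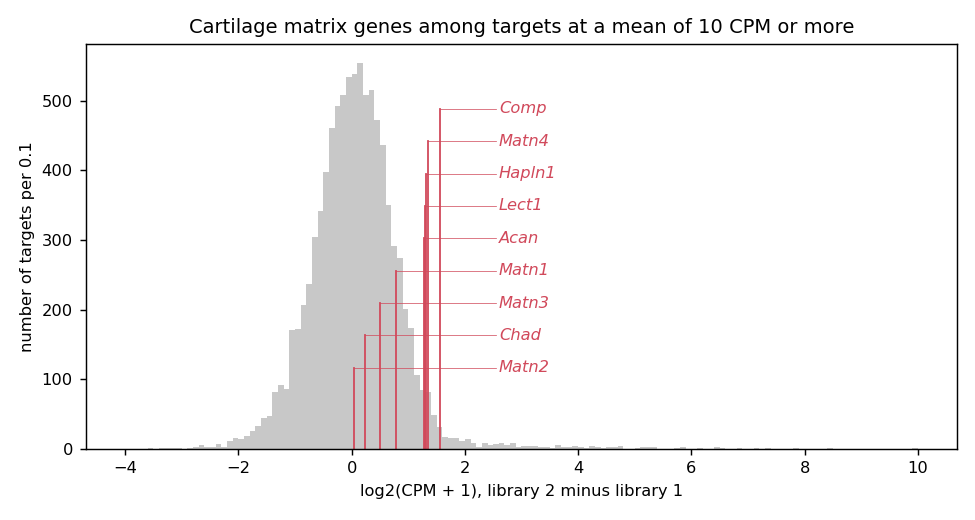
Histogram of the difference in log2(CPM + 1), library 2 minus library 1, over the 9192 targets at a mean of 10 CPM or more, with the 9 cartilage matrix genes of that level as red lines. Matn2 at 0.05 sits at the centre, and Acan, Lect1, Hapln1, Matn4 and Comp sit together from 1.28 to 1.56.

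The genes past 2-fold were grouped here after their values were seen. Of the 10 pairs among Acan, Hapln1, Matn4, Comp and Lect1, 1 had folds whose ratio lay above 1 by its interval, Comp over Acan at 1.22 (interval 1.09 to 1.37). Among the other 5 genes the interval lay above 1 in 6 of 10 pairs. Grouping by fold itself brings like folds together, so the counts within the groups are no evidence that the genes vary together. Across the 2-fold line the direction of a ratio is set by the grouping, and the sizes ran from Acan over Matn1 at 1.41 (interval 1.29 to 1.54) to Comp over Prg4 at 6.92 (interval 2.66 to 17.6). Amplicon efficiency cancels in such ratios of folds, while variation between samples is not covered. As a share of the reads of the 10 genes, Chad went from 15.2% in library 1 (interval 14.2 to 16.2) to 8.55% in library 2 (interval 8.23 to 8.89). Comp went from 8.45% (interval 7.68 to 9.28) to 12% (interval 11.6 to 12.3), and Matn1 from 17.5% (interval 16.4 to 18.6) to 14.4% (interval 14.0 to 14.8).

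Cartilage collagens and Sox9 were read to check that RNA of cartilage was present. The exact test called all 8 collagen chains of the list higher in library 2, and 7 reached 1 CPM in both libraries. Col2a1, the main collagen of cartilage, went from 407 to 2078 CPM, a 5.10-fold difference (interval 4.89 to 5.33), larger than that of any of the 10 genes. Col9a3, a chain of the collagen that decorates those fibrils, went from 27.9 to 118 CPM, and Col11a2 from 453 to 1041 CPM. Col10a1, the collagen of hypertrophic chondrocytes, went from 61.8 to 172 CPM. Smaller folds were seen for Col11a1 at 1.41 and Col9a1 at 1.53, and Col27a1 differed 3.43-fold. Col9a2 was low at 0.883 and 4.18 CPM. Relative to Col2a1 reads, every one of the 10 genes was lower in library 2, with an interval below 1. That direction follows from the larger fold of Col2a1 and depends on the chain chosen as reference. Relative to Col11a1, whose fold was smaller, Acan would be higher in library 2 and Matn2 lower. Acan went from 84.6 to 40.4 reads per 100 reads of Col2a1, a factor of 0.478 (interval 0.448 to 0.509). The factor was 0.583 for Comp, 0.338 for Matn1, 0.232 for Chad and 0.203 for Matn2.

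Of 4 chondrocyte transcription factors measured, 2 were higher in library 2. Sox9, which drives the chondrocyte programme, went from 21.4 to 66.8 CPM, a fold of 3.13 (interval 2.59 to 3.81), and Trps1, a repressor of chondrocyte maturation, from 23.0 to 53.9 CPM. Sox5 and Sox6, partners of Sox9 that are also expressed in other cells, were not called, at 9.71 and 10.2 CPM for Sox5 and 173 and 175 CPM for Sox6. Among 5 genes of growth cartilage signalling and maturation, 4 were higher in library 2 and 1 was not called. The highest was Pth1r, the receptor for PTHrP, at 142 and 325 CPM. Fgfr3, which restrains chondrocyte growth, was at 75.0 and 105 CPM, and the channel gene Panx3 at 27.2 and 61.4 CPM. Pth1r and Panx3 are also expressed by osteoblasts.

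Aggrecan belongs to the lecticans, which share a hyaluronan-binding end. Vcan, the versican gene of loose connective tissue, was at 133 and 242 CPM. The ratio of Acan to Vcan reads went from 2.6 to 3.46, a factor of 1.33 (interval 1.22 to 1.46). Of the brain lecticans, Bcan was at 13.1 and 27.3 CPM and Ncan at 15.5 and 5.38 CPM. Ncan was thus higher in library 1, and the Acan to Ncan ratio changed by a factor of 7.04 (interval 5.15 to 9.64), whereas the Acan to Bcan ratio changed by 1.17 (interval 0.894 to 1.5). Among the other link proteins, Hapln3 was at 4.41 and 2.97 CPM, Hapln4, a brain link protein, at 8.12 and 6.58 CPM, and Hapln2 was read 0 times in library 1 and 2 times in library 2. None of these 3 was called by the exact test, and Hapln1 gained on Hapln3 by a factor of 3.81 (interval 2.15 to 6.57) and on Hapln4 by 3.16 (interval 2.07 to 4.78). Cd44, a cell surface receptor for hyaluronan, was at 313 and 346 CPM. The hyaluronan synthases were low, Has2 at 7.06 and 3.92 CPM, Has1 at 1.41 and 0.759 CPM and Has3 at 0.883 and 1.20 CPM, with Has2 higher in library 1. Hyal1 and Hyal2, which break hyaluronan down, were at 27.4 and 41.1 CPM and at 25.1 and 46.3 CPM, and Cemip, which also degrades it, at 14.1 and 18.7 CPM. In the exact test library 2 was the higher for 5 of these 13 genes and library 1 for 2, and 6 were not called. The list had a median difference of 0.17 on the log2 scale.

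Chondroitin sulfate chains are built on aggrecan by a series of transferases and sulfotransferases. Of the 23 such genes measured, 23 reached 1 CPM in both libraries, and the median difference was 0.43. The test called 14 higher in library 2 and 6 higher in library 1, with 3 left uncalled. The highest were Chst15, a sulfotransferase, at 174 and 200 CPM, Chpf2, a chain polymerizing factor, at 84.0 and 178 CPM, and Papss1, which makes the sulfate donor, at 133 and 82.9 CPM. The chain elongation genes Chpf2 (2.11-fold), Chpf (2.64-fold) and Chsy1 (1.97-fold) and the sulfate donor gene Papss2 (2.42-fold), known for its role in cartilage, were higher in library 2. Chpf, Chsy1 and Papss2 were named after their values were seen. Papss1 and Papss2, which make the same donor, thus differed in opposite directions.

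Among 11 genes of matrix proteases and of their inhibitor Timp3, 6 were higher in library 2, 5 were not called and 0 were higher in library 1 (median difference 0.44). Mmp13, a collagenase of hypertrophic cartilage and bone, was highest and level at 310 and 316 CPM. Htra1, a serine protease of the matrix, was at 215 and 231 CPM. Timp3 was at 98.7 and 165 CPM, 1.68-fold higher in library 2 (interval 1.53 to 1.84). The aggrecanases Adamts4 and Adamts5, named after their values were seen, were at 53.9 and 60.3 CPM (not called) and at 34.3 and 51.4 CPM (1.5-fold, called). Other cartilage non-collagen genes were divided, with 5 of 10 higher in library 2, 3 higher in library 1 and 2 not called (median difference 0.36). Mgp, an inhibitor of mineral deposition, was highest at 990 and 703 CPM and lower in library 2. Prelp, a leucine-rich matrix protein, was at 67.5 and 123 CPM, and Snorc, a chondrocyte proteoglycan read under its older symbol, at 72.2 and 49.2 CPM. Besides Prelp, the genes higher in library 2 were Cytl1 (4.08-fold), Ucma (3.23-fold), Cilp2 (2.76-fold) and Clec3a (1.71-fold), named after their values were seen.

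Several of the 10 genes are also expressed outside cartilage, so markers of neighbouring tissues are given beside them. Tendon markers ran the other way from Comp and Lect1. Of 6, 5 were higher in library 1 and 1, Fmod, was higher in library 2, with a median difference of -1.03. They summed to 1013 CPM in library 1 against 899 CPM in library 2, with Fmod the largest part in both. Thbs4, a thrombospondin of tendon and a relative of Comp, was at 85.8 and 32.0 CPM. For each Thbs4 read there were 0.835 Comp reads in library 1 and 6.68 in library 2, a factor of 7.99 (interval 6.78 to 9.42). Tnmd, the tendon relative of Lect1, was at 362 and 86.6 CPM, and the ratio of Lect1 to Tnmd went from 0.0532 to 0.560, a factor of 10.5 (interval 8.49 to 13.1). Fmod, a collagen-binding proteoglycan of tendon and cartilage, was at 449 and 720 CPM. These pairs of relatives were chosen after the values were seen.

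Joint surface genes, set beside Prg4, were not higher in library 2. Of 3 measured, 1 was higher in library 1 (Tppp3, at 301 and 252 CPM) and 2 were not called (Erg at 38.0 and 33.3 CPM, and Creb5 at 2.65 and 1.65 CPM). Their median difference was -0.26. Erg is also a gene of endothelium. Gdf5, the joint marker, was not analysed here.

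Bone, suture, muscle, olfactory and tooth genes also differed between the libraries. These lists, like those above, were chosen with earlier results of these data known, so their counts are descriptions. Of 8 osteoblast genes, 6 were higher in library 2 and 2 in library 1 (median difference 0.66, summed level 166636 and 171917 CPM). The highest were Col1a1 at 119187 and 132878 CPM, Col1a2 at 27745 and 22481 CPM and Sparc at 17146 and 11030 CPM. Col1a1 made up most of the summed level, and Col1a2 and Sparc were the 2 genes higher in library 1. Spp1 (2.35-fold), Ibsp (2.26-fold), Runx2 (2.09-fold) and Sp7 (2.06-fold), named after their values were seen, were higher in library 2. Of 6 suture mesenchyme genes, 4 were higher in library 2, 1 in library 1 and 1 was not called (median 0.93, summed level 218 and 305 CPM), led by Twist1 at 124 and 72.8 CPM, Gli1 at 32.0 and 64.4 CPM and Six2 at 18.2 and 75.5 CPM. All 6 skeletal muscle genes were higher in library 1 (median -1.75, summed level 40051 and 12513 CPM), with Mylpf at 13300 and 5222 CPM, Acta1 at 10110 and 2583 CPM and Myh8 at 6588 and 2188 CPM. All 6 olfactory sensory neuron genes were higher in library 2 (median 3.13, summed level 96.6 and 527 CPM), with Omp at 11.1 and 247 CPM, Adcy3 at 72.9 and 145 CPM and Gnal at 9.01 and 70.5 CPM. All 6 tooth germ genes were higher in library 2 as well (median 1.79, summed level 119 and 530 CPM), with Amelx at 91.3 and 380 CPM, Ambn at 17.3 and 111 CPM and Enam at 7.06 and 16.3 CPM. Odam, named after its values were seen, was read 0 times in library 1. The sampled tissue was labelled suture, and the part that nasal, tooth, bone or muscle tissue played in the level of the cartilage matrix genes was not tested.

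**Figure D4:**
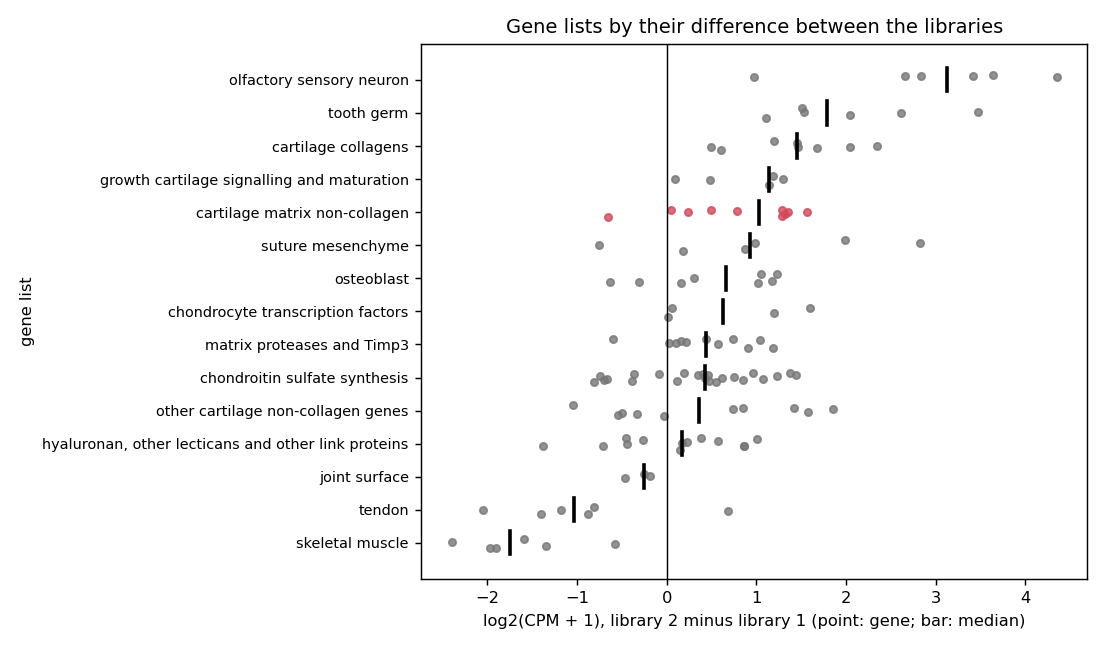
Difference in log2(CPM + 1), library 2 minus library 1, of each gene (points) in 15 lists ordered by their median (black bars), with the 10 cartilage matrix genes in red. The cartilage matrix genes have a median of 1.03, between growth cartilage signalling and maturation at 1.15 and suture mesenchyme at 0.93, while tendon (-1.03) and skeletal muscle (-1.75) lie on the side of library 1.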

How the data were processed

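The authors deposited CPM values, with 1 column per library and 1 row per amplicon target. Per the labels' protocols, column-purified total RNA went into the Ion AmpliSeq mouse transcriptome panel, and the submitters' processing notes name mm10. For the aligner, the counter and the amplicon positions, the sources used here give nothing. In both libraries 100% of the values were whole multiples of 1 step, within 0.05 of a read, so reads were recovered. Folds, intervals and tests were computed from those reads with Python 3.11.15 and SciPy 1.17.1, and log2 values used a pseudocount of 1 CPM. With 1 library on each side, a contrast between the libraries leaves no residual degrees of freedom, so no model with replicates was fitted to it. edgeR 4.0.16 gave scaling factors only. The binomial test was tested on simulated reads with counting error only, so variation between samples was not part of that check. The gene coordinates are from GENCODE M21 (GRCm38, the build named mm10). Snorc was matched through a RefSeq synonym, and 27 symbols turned into dates were restored from target names.

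The genes and the 14 other lists (119 genes, 4 of them not analysed here) were chosen with earlier results of these data known. Named were the 10 genes, all genes of the collagen, transcription factor and hyaluronan lists, and the 3 highest of each other list; others are marked as chosen later. Alternatives varied the scaling, pseudocount, filter and call rule, and left out each library.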

Additional observations from a re-analysis of the deposited data

How the results depend on the processing

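The count of 8 genes higher in library 2 was the same with library totals that leave out the 10 highest targets, with median-of-ratios size factors, with TMM and with adjustment over targets averaging at least 1 CPM. It was 6 against a 1.5-fold difference and 5 by a fold of at least 2. The median difference ranged from 0.95 (pseudocount of 5 CPM) to 1.28 (the 9 genes averaging at least 10 CPM). A pseudocount cannot turn the direction of a single-gene difference, so the 20 values under other pseudocounts bear on size only. Under other scalings the single-gene differences kept their direction and call in 30 of 30 values. Some sizes moved: Prg4 went from -0.65 to -1.12 (pseudocount of 0.1 CPM) and -0.23 (pseudocount of 5 CPM), and Matn2 from 0.05 to 0.014 (median-of-ratios size factors), 0.022 (TMM) and 0.078 (totals without the 10 highest targets). The scalings moved the median of targets averaging at least 10 CPM by at most 0.04 on the log2 scale. Without replicate 1 or without replicate 2 the number of genes at 1 CPM was 9 or 10, and no difference can be computed from the library that is left. No paired analysis was possible because the 2 libraries form 1 group. Depth limits Prg4, at 10 and 12 reads, and the variation between samples behind the differences is not measured by 2 libraries.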
